A study of Mus musculus with 6 samples.

Results

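Il10 and 8 other cytokine genes that B cells are known to transcribe were followed in activated splenic B cells with and without the aryl hydrocarbon receptor (AhR). The genes form a named list: Il10, Il6, Il2, Il12a, Ebi3, Lta, Ltb, Tnf and Tgfb1. They are 9 of the 23420 genes in the count table, and all 9 passed the minimum of 10 counts over the 6 libraries that left 13682 genes to be tested.

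B cells take part in immunity through the cytokines they release as well as through antibody. IL-10, TGF-β1 and IL-35 (a dimer of the products of Ebi3 and Il12a) are known as products of regulatory B cells, which restrain inflammation, whereas IL-6, TNF, IL-2 and lymphotoxin (the products of Lta and Ltb) are products of effector B cells, and lymphotoxin also shapes lymphoid tissue. AhR is a ligand-activated transcription factor that binds dioxin response elements in DNA after it has entered the nucleus, and it has been studied as a regulator of cytokine genes in several kinds of lymphocyte.

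B cells were purified from the spleens of 3 Ahr+/+ and 3 Ahr-/- mice on the C57Bl/6J background, with 1 library per mouse. The Ahr-/- mice carry a germline deletion, which is not limited to B cells. Both genotypes received the same culture of 8 h in α-IgM (10 μg/ml), a stimulus of the B-cell receptor, plus IL-4 (20 ng/ml), and FICZ, an AhR ligand, was present at 250 nM during the final 4 h. There were no unstimulated, FICZ-free or earlier samples, so each value is a level at the end of this culture and not an induction. The study's methods describe its mice as adults matched for age and gender, and the labels give no age for single mice.

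Total counts lay between 22095096 and 53648787 per library, and 3 counts, taken as the detection floor, corresponded to 0.0559 to 0.136 CPM (counts scaled by library size), a limit set by counting error alone. Ahr itself had 12681, 12892 and 13953 normalized counts in Ahr+/+ libraries and 8856, 8949 and 9717 in Ahr-/- libraries, a log2 fold change of −0.52 (edgeR adjusted p = 7.1e-06). Ahr mRNA was thus lower but present in every Ahr-/- library, and these counts do not tell reads of deleted exons from those of other exons. Ahr also overlaps Gm48236 on the opposite strand, and the strand setting of the counting is not given in the sources used here, so the counts are uncertain to that extent. Of 9 B-cell markers, 6 were higher in Ahr-/- B cells and 3 did not pass the test, and their summed level was 105776 to 111129 normalized counts in Ahr+/+ libraries and 125473 to 133143 in Ahr-/- libraries. Across the count table, 17.9% of the genes tested were called different between genotypes at an adjusted p-value under 0.05, with 9.79% higher and 8.13% lower in Ahr-/- B cells.

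Among the 9 cytokine genes, 4 were called: Ebi3, Lta and Tnf were higher and Tgfb1 was lower in Ahr-/- B cells, against the 17.9% of all genes that were called. The other 5, Il10, Il6, Il2, Il12a and Ltb, did not pass the test. The median log2 fold change of the 9 genes was 0.40, against 0.002 over all genes tested, and the median of its absolute value was 0.53 against 0.11. None of the 4 called genes changed more than 2-fold. Ahr+/+ and Ahr-/- values did not overlap for 5 of the 9 genes (Il6, Ebi3, Lta, Tnf and Tgfb1), and over all genes tested this held for 33.5%. These are bulk libraries, so fewer cells that express a gene and less RNA per cell cannot be told apart.

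**Figure D1:**
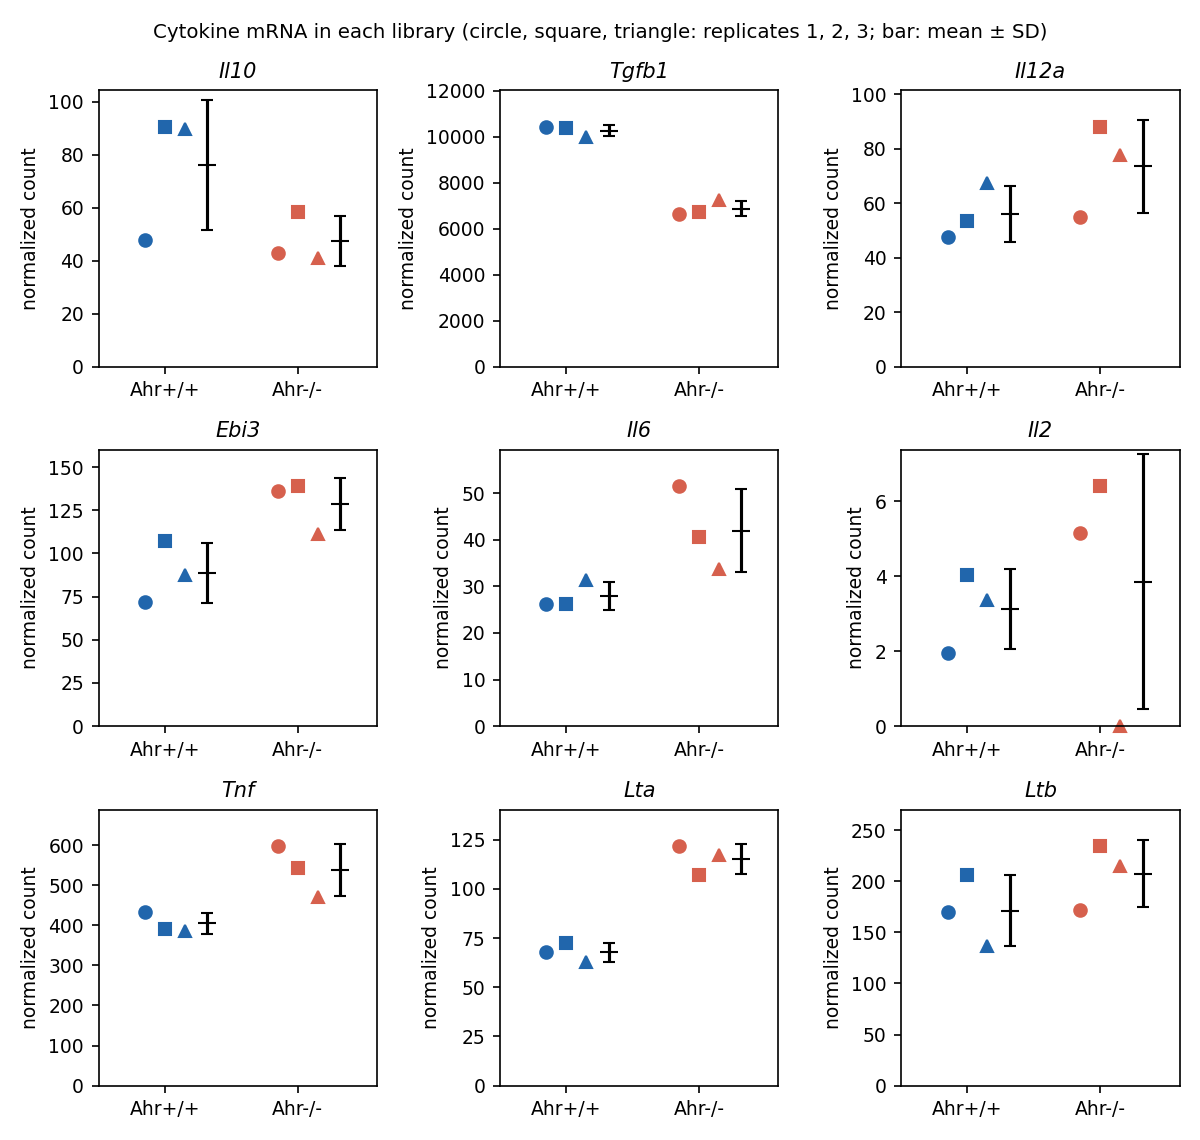
Normalized counts of each cytokine gene in the 6 libraries (y axis, starting at 0; circles, squares and triangles are replicates 1, 2 and 3 of each genotype, and the bar is the mean ± SD, n = 3 mice). Tgfb1 is lower in every Ahr-/- library, Lta, Tnf, Ebi3 and Il6 are higher in every one, and the Ahr+/+ values of Il10 split into 1 library at 47.6 and 2 libraries near 90.

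Tgfb1 encodes TGF-β1, which is secreted in a latent form and restrains lymphocyte growth and inflammation. It was the most abundant of the 9 mRNAs. It had 10443, 10393 and 9973 normalized counts in Ahr+/+ libraries and 6627, 6734 and 7230 in Ahr-/- libraries. The genotypes were far apart and the spread within each was small. Tgfb1 fell from 10270 ± 258 to 6864 ± 322 normalized counts (mean ± SD, n = 3 per genotype), and its log2 fold change was −0.58 (SE, the standard error, 0.042, edgeR adjusted p = 8.6e-07), or 0.669 of the Ahr+/+ level. Leaving out each library in turn kept the log2 fold change between −0.62 and −0.56.

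Tgfb1 lies on chr7:25687002-25705077 of GRCm38, on the forward strand, with no overlapping gene in the annotation. Its promoter window, from 250 bases before to 50 bases after the RefSeq start site (GRCm38.p6), is shown because AhR is a DNA-binding factor and Tgfb1 was the called gene that fell. The capitals mark a match to the κB consensus, the motif of NF-κB, at position −140 and the dioxin response element core at position −118, which reads CACGC here because the core GCGTG is on the opposite strand.
Tgfb1 promoter, chr7:25686752-25687051 (forward strand): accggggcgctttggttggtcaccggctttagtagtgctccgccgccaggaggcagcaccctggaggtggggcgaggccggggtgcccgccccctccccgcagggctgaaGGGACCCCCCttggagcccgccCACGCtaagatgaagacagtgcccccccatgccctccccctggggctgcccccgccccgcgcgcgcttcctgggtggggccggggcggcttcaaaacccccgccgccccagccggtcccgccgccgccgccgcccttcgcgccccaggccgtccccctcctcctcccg
Both strands of each window were searched for the core GCGTG, the κB consensus and the TATA box TATAAA. The core was found in 32.4% of 32851 RefSeq promoter windows, the κB consensus in 8.46% and TATAAA in 13.6%. The windows of 8 of the 9 genes were in the RefSeq table, 9 windows in all. Il10 had no window there, so its promoter was not searched. Besides Tgfb1, the core occurred only in 1 of the 2 windows of Il12a, at position −216. A match is a description of the sequence, and no binding was measured in these libraries.

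Genes that hold or release latent TGF-β changed in both directions. Of 16 such genes and cytokine partner subunits, 14 were tested, 3 were higher, 2 were lower and 9 did not pass, beside the 9.79% higher and 8.13% lower of all genes. Lrrc32 encodes GARP, which tethers latent TGF-β at the cell surface. It had 1381, 1289 and 1181 normalized counts in Ahr+/+ libraries and 733, 749 and 920 in Ahr-/- libraries, without overlap, a log2 fold change of −0.68 (SE 0.084, edgeR adjusted p = 1.0e-04). Itgav, the integrin chain that takes part in releasing TGF-β, fell by 0.23 on the log2 scale (edgeR adjusted p = 0.0080). In the other direction Ltbp4, a latent TGF-β binding protein, rose by 0.72 (edgeR adjusted p = 0.0061) and Lrrc33, a further tether of latent TGF-β, by 0.29 (edgeR adjusted p = 0.0031), both on the log2 scale. Tgfb3 had an adjusted p of 0.047 from edgeR at a log2 fold change of 0.43, and lost the call with the replicate number as a block (adjusted p = 0.083) and without Ahr+/+ replicate 1, Ahr+/+ replicate 2, Ahr+/+ replicate 3, Ahr-/- replicate 2 or Ahr-/- replicate 3 (adjusted p between 0.072 and 0.18). Furin, which cleaves the TGF-β precursor, had a log2 fold change of −0.02 (edgeR adjusted p = 0.88).

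Both signalling receptor chains of TGF-β were higher in Ahr-/- B cells. Tgfbr1, the type I chain, had 4143, 3545 and 3836 normalized counts in Ahr+/+ libraries and 5883, 6235 and 6619 in Ahr-/- libraries. All Ahr-/- values lay above all Ahr+/+ values, and Tgfbr1 rose 1.63-fold (log2 fold change 0.70, SE 0.058, edgeR adjusted p = 3.1e-06). Tgfbr2, the ligand-binding chain, rose by 0.31 on the log2 scale (edgeR adjusted p = 7.9e-04). Tgfbr3, the accessory receptor betaglycan, had between 2 and 13 counts per library and did not pass the test.

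Il10 encodes IL-10, which acts on macrophages and T cells to limit inflammation. It had 49, 90 and 80 counts in Ahr+/+ libraries and 25, 82 and 45 in Ahr-/- libraries, or 47.6, 90.6 and 89.8 against 42.9, 58.3 and 41.0 normalized counts. Ahr+/+ replicates 2 and 3 were above every Ahr-/- library, but Ahr+/+ replicate 1 fell among them, so the genotypes overlapped. The means were 76.0 ± 24.6 and 47.4 ± 9.47 normalized counts (± SD, n = 3 per genotype). The log2 fold change was −0.64 (SE 0.25, 95% interval −1.20 to −0.09), and its unadjusted p of 0.027 became 0.11 after adjustment in edgeR. A two-sided exact permutation test gave p = 0.2, where 0.1 is the smallest that 3 mice against 3 allow. The difference in Il10 therefore did not pass the test, and the interval spans values from a small to a more than 2-fold decrease.

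The result for Il10 turned on 1 library. Without Ahr+/+ replicate 1 its log2 fold change was −0.89 with an adjusted p of 0.011 from edgeR, and with any other library left out it lay between −0.85 and −0.49 with an adjusted p between 0.09 and 0.31. With the replicate number as a block it was −0.69 with an adjusted p of 0.0502. Ahr+/+ replicate 1 also had the lowest level of its genotype for Igj, the joining chain made by plasma cells, with 6535 normalized counts against 11988 and 10445. It was also the lowest of its genotype for Lyz2 and Csf1r, genes of monocytes and macrophages, with 58.3 against 201 and 130 and with 54.4 against 132 and 93.2 normalized counts, and for Mpo, a gene of the neutrophil lineage, with 52.4 against 222 and 177. Emr1, Cd14 and S100a9, of the same marker lists, were not lowest in Ahr+/+ replicate 1. They had 654 against 662 and 633, 6.8 against 11.1 and 3.37, and 15.5 against 28.2 and 14.6. Between genotypes, Lyz2, Csf1r and Mpo had log2 fold changes of 0.73, 0.60 and 0.26 that did not pass the test, opposite in sign to Il10. Lyz2 and Csf1r were called without Ahr-/- replicate 3 (edgeR adjusted p = 0.029 and 0.0437). The marker genes named here were picked after their values were seen, and the part of such cells in the Il10 values was not tested.

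Il10 lies on chr1:131019845-131024974 of GRCm38 (forward strand, no overlapping gene). Its neighbours Il19, Il20 and Il24, cytokines of the IL-10 family, had at most 2 counts in any library and were not tested. Of the 3 neighbours tested 1 was called, beside the 17.9% of all genes. Mapkapk2 and Dyrk3 did not pass and Pigr, the receptor that carries polymeric immunoglobulin across epithelia, fell from 262 ± 19.4 to 146 ± 5.99 normalized counts (mean ± SD, n = 3 per genotype, log2 fold change −0.86, edgeR adjusted p = 7.6e-05).

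The chains of the IL-10 receptor changed in opposite directions. Il10ra, the ligand-binding chain, had 593, 622 and 553 normalized counts in Ahr+/+ libraries and 436, 414 and 350 in Ahr-/- libraries. The genotypes did not overlap, and Il10ra fell by 0.57 on the log2 scale (SE 0.085, edgeR adjusted p = 4.4e-04). Il10rb, which is shared with other receptors of the family, rose by 0.19 (edgeR adjusted p = 0.0069). Stat3, the transcription factor that IL-10 and IL-6 receptors activate, fell from 14768 ± 916 to 10669 ± 186 normalized counts (mean ± SD, n = 3 per genotype), a log2 fold change of −0.47 (edgeR adjusted p = 1.0e-05).

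Among 14 transcription factors known to act on Il10 in lymphocytes or macrophages, 2 were higher, 7 were lower and 5 did not pass the test, so 9 of 14 were called against 17.9% of all genes. Prdm1 encodes Blimp-1, the factor of plasma cell differentiation. It had 180, 235 and 229 normalized counts in Ahr+/+ libraries and 146, 149 and 119 in Ahr-/- libraries, and fell by 0.64 on the log2 scale (SE 0.14, edgeR adjusted p = 0.0058). Ahr+/+ replicate 1 had the lowest Prdm1 level of its genotype, as it had for Il10. Atf3, a stress-induced repressor, fell by 0.40 and Hif1a, the oxygen-regulated factor, by 0.35 on the log2 scale (edgeR adjusted p = 0.0084 and 2.5e-05). Nfatc1, a calcium-regulated factor downstream of the B-cell receptor, fell by 0.34, Nfatc2 by 0.30 and Ets1 by 0.17. Nfatc2 was not called without Ahr-/- replicate 2 (log2 fold change −0.25, edgeR adjusted p = 0.057). Bhlhe40, with a log2 fold change of −0.15 that missed the threshold (edgeR adjusted p = 0.0545), was called as lower by DESeq2 (0.018), with the replicate block (0.0175), in the robust fit (0.0331), with no filter on low counts (0.0302), without Ahr+/+ replicate 1 (0.0295) and without Ahr-/- replicate 3 (0.0109), the values in parentheses being adjusted p. Irf4 and Batf, which are induced on lymphocyte activation, rose by 0.28 and 0.33 (edgeR adjusted p = 0.0034 and 0.0033). Maf, a direct activator of Il10 in T cells, had only 9 to 18 counts per library and a log2 fold change of −0.46 that did not pass the test (edgeR adjusted p = 0.41).

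**Figure D2:**
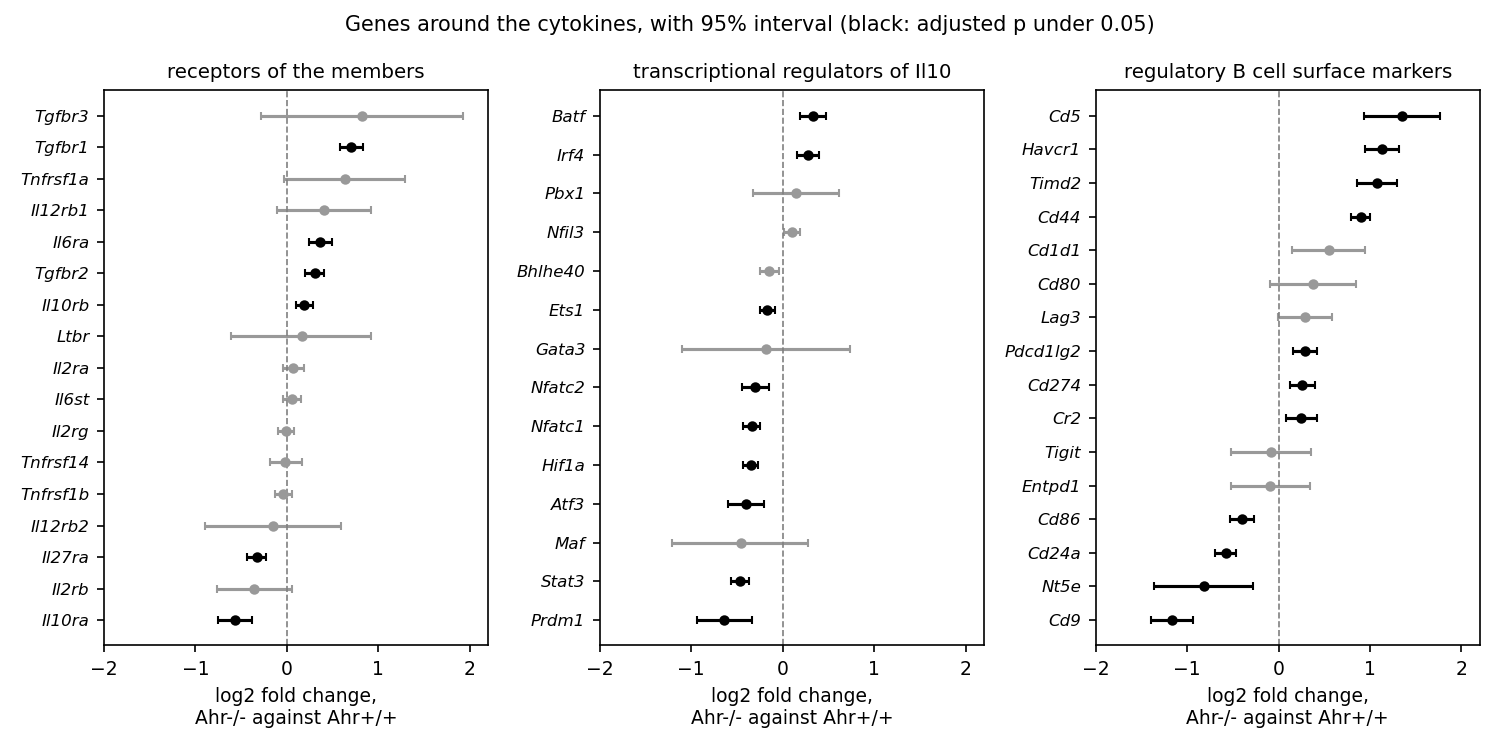
Log2 fold change of Ahr-/- against Ahr+/+ B cells (x axis; points are edgeR estimates and bars 95% intervals over 3 mice per genotype) for the receptor chains, the transcriptional regulators of Il10 and the surface markers of regulatory B cells, with called genes in black and others in grey. The receptors split into Tgfbr1 at 0.70 and Il10ra at −0.57 at their ends of the called genes, most called regulators lie below 0, and the surface markers run from Cd9 at −1.17 to Cd5 at 1.35.

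Surface proteins used to sort regulatory B cells were also called in both directions. Of 16 genes, 7 were higher, 4 were lower and 5 did not pass the test, or 11 called of 16 beside the 17.9% of all genes. Cd5, a dampener of B-cell receptor signalling found on B-1 cells and on the B10 cells that make IL-10, had 41.8, 54.3 and 66.3 normalized counts in Ahr+/+ libraries and 112, 132 and 161 in Ahr-/- libraries. Every Ahr-/- library was higher, and Cd5 rose 2.54-fold (log2 fold change 1.35, SE 0.19, edgeR adjusted p = 3.1e-04). Havcr1, which encodes TIM-1, a marker of B cells that make IL-10, rose 2.18-fold and its relative Timd2 2.11-fold (edgeR adjusted p = 1.8e-06 and 6.9e-06). Cd9, a tetraspanin also used to mark B cells that make IL-10, went the other way. It had 1282, 1440 and 1391 normalized counts in Ahr+/+ libraries and 724, 644 and 488 in Ahr-/- libraries, and fell by 1.17 on the log2 scale (SE 0.11, edgeR adjusted p = 6.3e-06). Cd24a, a further marker in the list, fell by 0.58 (edgeR adjusted p = 1.0e-05), and Cd1d1, which presents lipids, had a log2 fold change of 0.55 that did not pass the test (edgeR adjusted p = 0.060). The call for Cr2, the complement receptor, was lost in every fit that left out a library other than Ahr+/+ replicate 1 (adjusted p between 0.060 and 0.17), with DESeq2 (0.185) and in the robust fit (0.231). Nt5e, which encodes the ectoenzyme CD73 and is 1 of the 4 lower genes (log2 fold change −0.82, edgeR adjusted p = 0.038), was no longer called without Ahr+/+ replicate 2 or 3 or without Ahr-/- replicate 2 or 3 (adjusted p between 0.058 and 0.14).

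The subunits of IL-35 were present at moderate levels. Ebi3 encodes a soluble receptor-like chain that pairs with the product of Il12a in IL-35 and with that of Il27 in IL-27. Ebi3 had 71.9, 107 and 87.6 normalized counts in Ahr+/+ libraries and 136, 139 and 111 in Ahr-/- libraries. The genotypes did not overlap, with the highest Ahr+/+ library just below the lowest Ahr-/- library. Its level was 88.7 ± 17.4 in Ahr+/+ and 128 ± 15 in Ahr-/- B cells (mean ± SD, n = 3 per genotype), a log2 fold change of 0.53 (SE 0.17, edgeR adjusted p = 0.044). This call was near the threshold. DESeq2 gave an adjusted p of 0.063, and the call was lost in the edgeR fits without Ahr+/+ replicate 1 (0.15), Ahr+/+ replicate 3 (0.12), Ahr-/- replicate 1 (0.10) or Ahr-/- replicate 2 (0.18), the values in parentheses being adjusted p. Ebi3 lies on chr17:55952640-55957022 of GRCm38 (forward strand) and overlaps the antisense gene Gm16712. The strand setting of the counting step is not given in the sources used here, so its counts are uncertain to that extent.

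Il12a encodes the p35 chain of IL-12 and IL-35 and lies on chr3:68690644-68698547 (forward strand). It had 47.6, 53.3 and 67.4 normalized counts in Ahr+/+ libraries and 54.9, 88.1 and 77.5 in Ahr-/- libraries. The ranges overlapped, since Ahr-/- replicate 1 lay among the Ahr+/+ libraries. The log2 fold change was 0.44 (SE 0.21, 95% interval −0.01 to 0.89, edgeR adjusted p = 0.18) and did not pass the test.

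The other subunits that pair with these chains were close to the detection limit. Il12b, the second chain of IL-12, had 1, 1 and 2 counts in Ahr+/+ libraries and 2, 4 and 5 in Ahr-/- libraries. Il23a had 1 to 3 counts and Il27 0 to 6 counts per library, and none of the 3 passed the test (edgeR adjusted p = 0.24, 0.71 and 0.44). A difference in them was not detectable at this depth. The receptor chain Il27ra, which binds IL-27, fell by 0.33 on the log2 scale (edgeR adjusted p = 4.1e-04), while Il12rb1 and Il12rb2 had log2 fold changes of 0.40 and −0.15 that did not pass. Il12rb1 was called without Ahr-/- replicate 3 (log2 fold change 0.64, edgeR adjusted p = 0.0365).

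Ebi3 is also expressed by dendritic cells, and 8 of 10 plasmacytoid and 5 of 9 conventional dendritic cell markers were higher in the same Ahr-/- libraries, while 1 conventional marker, Zbtb46, was lower (log2 fold change −0.40, edgeR adjusted p = 0.0014), beside the 9.79% higher and 8.13% lower of all genes. Their part in the Ebi3 values was not tested. The promoter window of Ebi3 is shown for its 2 matches to the κB consensus, in capitals, at positions −44 and 14 from the start site. It held no dioxin response element core. The κB consensus also occurred in the windows of Il6, at −44, and Ltb, at −87, neither of which was called. Among all RefSeq windows it was found in 8.46%, and a relation between the motif and the fold change was not tested.
Ebi3 promoter, chr17:55952373-55952672 (forward strand): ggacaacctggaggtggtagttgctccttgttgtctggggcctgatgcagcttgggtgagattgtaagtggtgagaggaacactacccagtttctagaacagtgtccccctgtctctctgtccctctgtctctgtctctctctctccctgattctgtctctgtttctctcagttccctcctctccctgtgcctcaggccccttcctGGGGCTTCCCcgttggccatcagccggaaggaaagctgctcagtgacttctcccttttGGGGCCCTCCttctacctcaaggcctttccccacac

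Tnf, Lta and Ltb are neighbours on chromosome 17 and encode ligands of the TNF family. TNF and LTα act as soluble trimers on the TNF receptors, and LTβ holds LTα at the cell surface for the lymphotoxin β receptor. Lta showed the largest log2 fold change of the 4 called genes among the 9. It had 68.0, 72.4 and 62.9 normalized counts in Ahr+/+ libraries and 122, 107 and 117 in Ahr-/- libraries. All Ahr-/- libraries were well above all Ahr+/+ libraries. Lta rose from 67.8 ± 4.78 to 115 ± 7.74 normalized counts (mean ± SD, n = 3 per genotype), a 1.68-fold increase (log2 fold change 0.75, SE 0.14, edgeR adjusted p = 0.0027), and stayed called in each fit that left out 1 library, with log2 fold changes between 0.70 and 0.81.

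Tnf had 434, 392 and 387 normalized counts in Ahr+/+ libraries and 599, 542 and 470 in Ahr-/- libraries. The genotypes did not overlap, although the Ahr-/- libraries were spread over a wider range. Tnf rose from 405 ± 25.7 to 537 ± 64.4 normalized counts (mean ± SD, n = 3 per genotype), a 1.32-fold increase (log2 fold change 0.40, SE 0.090, edgeR adjusted p = 0.0084). It was called in every fit that left out a library, with log2 fold changes between 0.33 and 0.48. Markers of plasmacytoid dendritic cells (8 of 10) and NK cells (3 of 7), which can express Tnf or Lta, were higher in the same libraries, with 9.79% of all genes higher. The NK cell count was 1 without Ahr+/+ replicate 1 or 3 or Ahr-/- replicate 1 or 2, fits in which Ncr1 and Klrb1c lost their calls, and 4 without Ahr-/- replicate 3. Ncr1 was also not called by DESeq2 (adjusted p = 0.173). The same held in edgeR with the replicate number as a block (0.0724), with DESeq2 size factors (0.0502) and without Ahr+/+ replicate 2 (0.113). T cells and macrophages are further sources of these cytokines. Of 10 T-cell markers 2 were called, Cd3e and Cd28, with log2 fold changes of −1.26 and −0.86. Of 10 monocyte and macrophage markers 2 were called, Emr1 at −3.60 and Cd14 at 1.64, beside 17.9% of all genes. The uncalled T-cell markers ran from −0.84 (Cd3g) to 0.73 (Trat1). The uncalled monocyte and macrophage markers ran from −0.45 (C1qc) to 1.73 (Mertk). Cd14 lost its call in the same 4 fits as Klrb1c (adjusted p between 0.054 and 0.11). The part of these cells in the Tnf and Lta values was not tested.

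Ltb had 170, 206 and 137 normalized counts in Ahr+/+ libraries and 172, 235 and 215 in Ahr-/- libraries. The ranges overlapped, with Ahr+/+ replicate 2 above Ahr-/- replicate 1. The log2 fold change was 0.30 (SE 0.15, 95% interval −0.03 to 0.63, edgeR adjusted p = 0.22), so no change in Ltb was called, and its interval includes the estimate for Tnf. Whether Lta and Ltb changed by different amounts is given by their ratio, which follows with the other ratios.

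In GRCm38, Ltb lies on chr17:35194439-35196320 (forward strand), Tnf on chr17:35199381-35202007 (reverse strand) and Lta on chr17:35203165-35205351 (reverse strand). Small RNA genes overlap Ltb (Mir6973a) and Lta (Mir6974) on the same strand. None of the 6 other genes of the locus that were tested was called by edgeR or DESeq2, beside the 17.9% of all genes called by edgeR. An unadjusted p under 0.05 was found for 1 of them, Aif1, a gene of macrophages with 1 to 18 counts per library and a log2 fold change of 1.33 (edgeR adjusted p = 0.15). Without Ahr+/+ replicate 2, Aif1 had an adjusted p of 0.035 from edgeR. The abundant neighbours Prrc2a and Ddx39b had log2 fold changes of −0.07 and 0.00.

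**Figure D3:**
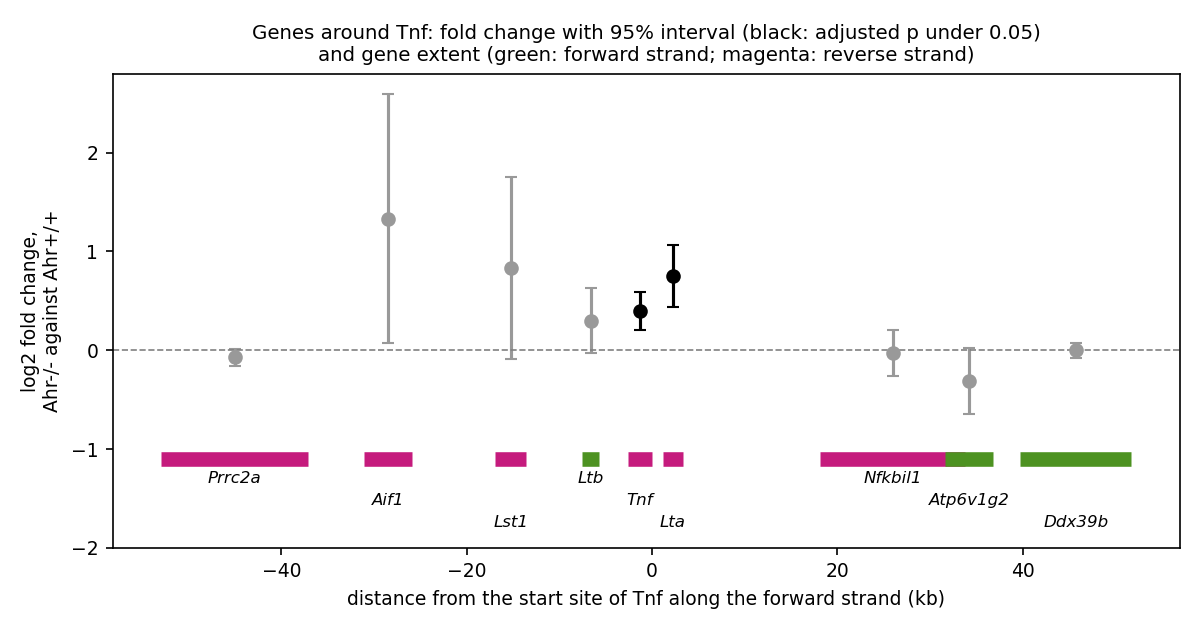
Log2 fold change with its 95% interval (y axis, edgeR, 3 mice per genotype) of the genes around Tnf, placed at the middle of each gene by distance from the Tnf start site in kb along the forward strand (x axis); bars under the points show the extent and strand of each gene. Tnf at 0.40 and Lta at 0.75 are the called genes of the 9 shown, and the wide intervals of Aif1 and Lst1 go with their low counts.

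The promoter windows of Lta and Tnf are shown because the genes are adjacent, are read in the same direction and both rose. In each, the capitals mark the TATA box motif TATAAA, at position −167 in Lta and −29 in Tnf. Neither window held the dioxin response element core or the κB consensus as searched.
Lta promoter, chr17:35205302-35205601 (reverse strand): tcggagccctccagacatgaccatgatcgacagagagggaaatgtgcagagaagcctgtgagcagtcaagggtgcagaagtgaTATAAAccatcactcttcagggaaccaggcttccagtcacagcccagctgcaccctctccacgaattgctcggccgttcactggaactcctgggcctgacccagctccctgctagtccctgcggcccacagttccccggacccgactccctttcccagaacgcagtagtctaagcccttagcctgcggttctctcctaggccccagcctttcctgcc
Tnf promoter, chr17:35201958-35202257 (reverse strand): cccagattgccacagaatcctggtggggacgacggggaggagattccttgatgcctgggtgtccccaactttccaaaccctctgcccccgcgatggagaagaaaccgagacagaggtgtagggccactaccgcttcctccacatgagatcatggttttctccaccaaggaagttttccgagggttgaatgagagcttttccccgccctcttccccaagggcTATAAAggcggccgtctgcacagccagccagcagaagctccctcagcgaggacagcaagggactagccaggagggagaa

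Cytokine mRNAs often carry AU-rich elements in their 3′ UTR, through which RNA-binding proteins control their decay. The nonamer TTATTTATT, searched on the transcript strand, was found in the 3′ UTR of 4 of the 9 genes (Il2, Il12a, Lta and Tnf) against 7.66% of 21020 genes with a 3′ UTR in the GENCODE annotation. Tnf had 5 copies and the other 3 genes had 1 each. The shorter pentamer ATTTA occurred 10 times in Il6, 8 times in Tnf, 7 times in Il2, 6 times each in Il10 and Il12a, 3 times in Lta, once in Ebi3 and Tgfb1, and not in Ltb. For each gene the longest annotated 3′ UTR was searched. Its length was 1668 bases for Il6 and from 135 (Tgfb1) to 764 (Tnf) for the rest, and the counts are not corrected for length. The pentamer was present in 65.2% of all 3′ UTRs, with a median of 1 copy. The nonamer sites of the called genes are shown with the pentamers in capitals, in GRCm38, beside that of Il12a.
Tnf 3′ UTR site, chr17:35199678-35199707 (reverse strand): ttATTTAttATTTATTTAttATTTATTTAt
Lta 3′ UTR site, chr17:35203385-35203414 (reverse strand): ttATTTATTTAtagagaatagaaagagggg
Il12a 3′ UTR site, chr3:68698446-68698475 (forward strand): ttATTTAttttctATTTAttataatatttc
Of the genes with the nonamer, Tnf and Lta rose and Il12a and Il2 were not called. Of those without it, Ebi3 rose, Tgfb1 fell and Il10, Il6 and Ltb were not called. A relation between the nonamer and the fold change was not tested.

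Of 13 genes for proteins that control cytokine mRNA decay, 1 was higher, 5 were lower and 7 did not pass the test, so 6 of 13 were called, with 17.9% over all genes. Zfp36l1, which binds AU-rich elements and promotes decay, had 49299, 43367 and 43691 normalized counts in Ahr+/+ libraries and 26858, 25313 and 31067 in Ahr-/- libraries. The genotypes did not overlap, and Zfp36l1 fell by 0.71 on the log2 scale (SE 0.069, edgeR adjusted p = 1.2e-05). Its relatives Zfp36 and Zfp36l2 had log2 fold changes of −0.07 and −0.05 and did not pass. Zfp36 was called without Ahr-/- replicate 3 (log2 fold change −0.13, edgeR adjusted p = 0.0469). Arid5a, which stabilizes Il6 mRNA, fell by 0.32 (edgeR adjusted p = 0.0020), and Khsrp, which promotes decay, by 0.19. Zc3h12d, a relative of the ribonuclease Regnase-1, rose by 0.49 (edgeR adjusted p = 5.2e-04). Khsrp, Tial1 and Zc3h12a, with changes of −0.16 to −0.19, were no longer called without Ahr-/- replicate 2, which left 3 genes of the list. Without Ahr+/+ replicate 1, Tial1 and Zc3h12a also lost their calls (edgeR adjusted p = 0.0582 and 0.0513). Zc3h12a lost it without Ahr+/+ replicate 2 as well (adjusted p = 0.054).

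None of the 4 receptors for TNF and lymphotoxin in the list was called by edgeR or DESeq2, and none had an unadjusted p under 0.05. Tnfrsf1b, the abundant TNF receptor, had a log2 fold change of −0.04 (edgeR adjusted p = 0.63) and Tnfrsf14, a receptor for LTα, of −0.02 (adjusted p = 0.91). Tnfrsf1a had 14 to 62 counts and Ltbr 10 to 31 counts per library, and neither passed. Of all 17 receptor genes, 4 were higher, 2 were lower and 11 did not pass, or 6 called of 17 beside the 17.9% of all genes.

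Il6 encodes IL-6, which drives plasma cell and T follicular helper cell responses, and lies on chr5:30013114-30019981 (forward strand). It had 27, 26 and 28 counts in Ahr+/+ libraries and 30, 57 and 37 in Ahr-/- libraries, or 26.2, 26.2 and 31.4 against 51.5, 40.5 and 33.7 normalized counts. All Ahr-/- libraries were higher, but the lowest of them was close to the highest Ahr+/+ library. The log2 fold change was 0.55 (SE 0.23, 95% interval 0.04 to 1.06), with an unadjusted p of 0.036 and an adjusted p of 0.14 from edgeR, so Il6 was not called. Its receptor Il6ra rose from 605 ± 24.9 to 780 ± 21.6 normalized counts (mean ± SD, n = 3 per genotype, log2 fold change 0.36, edgeR adjusted p = 6.9e-04), while the shared signalling chain Il6st had a log2 fold change of 0.06 that did not pass.

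Il2, the T-cell growth factor, was close to the detection limit. It had 2, 4 and 3 counts in Ahr+/+ libraries and 3, 9 and 0 in Ahr-/- libraries. With most libraries at or under the floor of 3 counts, the fitted log2 fold change of 0.31 (SE 0.81, edgeR adjusted p = 0.84) is not a measure of change, and a difference was not detectable at this depth. Il2 lies on chr3:37120523-37125959 (reverse strand) and overlaps Adad1 on the opposite strand. The receptor chains Il2ra and Il2rg were abundant, with log2 fold changes of 0.07 and −0.01 that did not pass, and Il2rb had a log2 fold change of −0.36 (edgeR adjusted p = 0.23), which was called without Ahr+/+ replicate 1 (log2 fold change −0.56, adjusted p = 0.022).

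**Figure D4:**
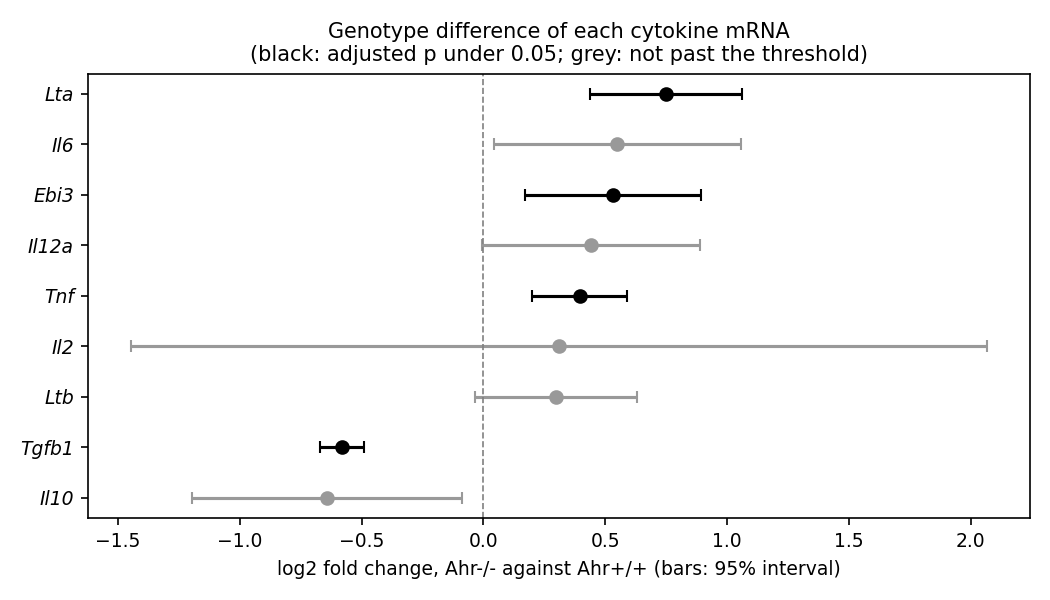
Log2 fold change of Ahr-/- against Ahr+/+ B cells with its 95% interval (x axis, edgeR, 3 mice per genotype) for the 9 cytokine genes, ordered by value, with called genes in black. The estimates run from −0.64 for Il10 to 0.75 for Lta, and the intervals are narrow for the abundant Tgfb1 and widest for Il2.

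Ratios of raw counts within a library do not depend on how libraries are scaled, and 6 pairs of cytokine genes were compared in this way. The ratio of Il10 to Il6 was 1.81, 3.46 and 2.86 in Ahr+/+ libraries and 0.833, 1.44 and 1.22 in Ahr-/- libraries. Every Ahr-/- library had a lower ratio, including against Ahr+/+ replicate 1, in which Il10 was low. The ratio was 2.31-fold lower in Ahr-/- B cells, a log2 difference of −1.21 (two-sided exact permutation p = 0.1, the lowest value possible with 3 mice per genotype, and 0.3 adjusted over the 6 pairs). The mean log2 ratio was 1.39 ± 0.48 in Ahr+/+ and 0.18 ± 0.40 in Ahr-/- B cells (mean ± SD, n = 3 per genotype). Leaving out each library kept the difference between −1.47 and −0.99.

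The ratio of Tnf to Lta was 6.39, 5.42 and 6.16 in Ahr+/+ libraries and 4.92, 5.09 and 4.03 in Ahr-/- libraries. It was lower in all Ahr-/- libraries, a log2 difference of −0.36 (exact permutation p = 0.1, 0.3 adjusted). For the other 4 pairs the genotypes overlapped. The log2 difference was 0.48 for Lta to Ltb (exact permutation p = 0.2), 0.17 for Ebi3 to Il12a (p = 0.6), 0.12 for Tnf to Ltb (p = 0.7) and 0.06 for Tgfb1 to Il10 (p = 0.8). No pair passed the adjusted threshold, which 3 mice against 3 cannot reach with this test.

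**Figure D5:**
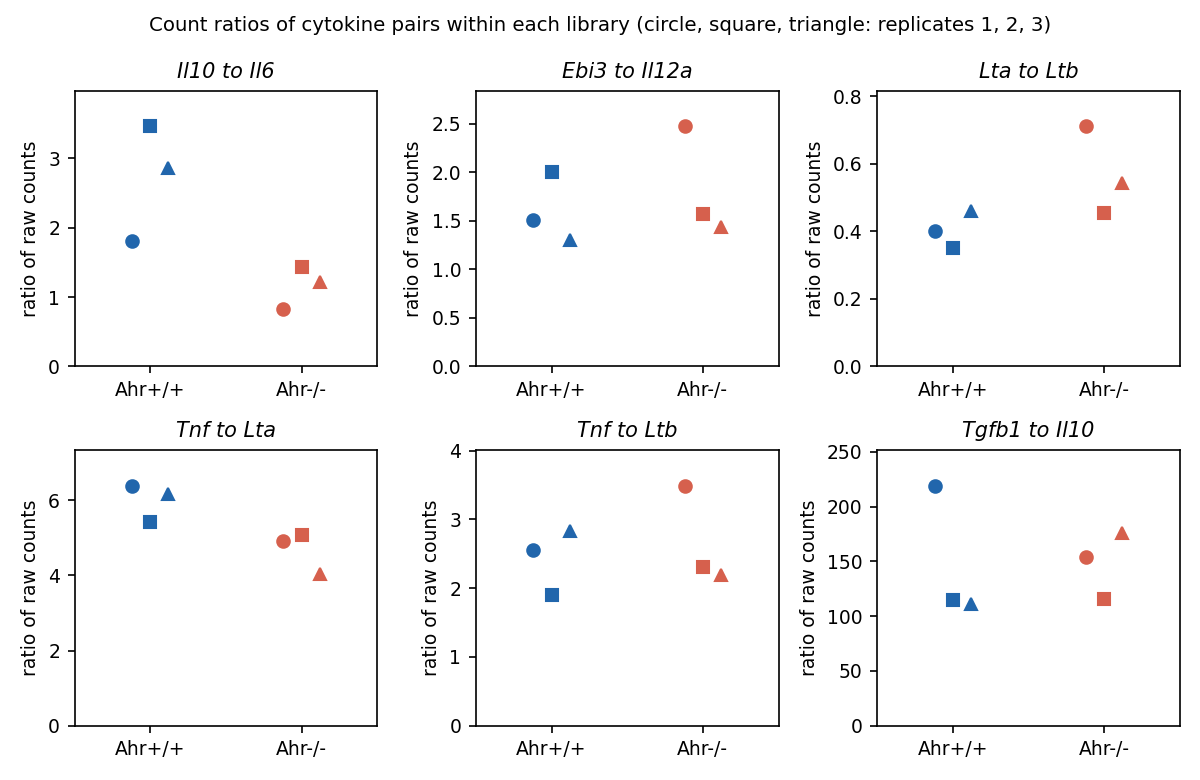
Ratio of raw counts of 2 cytokine genes in each library (y axis, starting at 0; circles, squares and triangles are replicates 1, 2 and 3 of each genotype). Il10 to Il6 and Tnf to Lta are lower in every Ahr-/- library, and the other 4 pairs overlap, with the ratio of Tgfb1 to Il10 highest, at 219, in Ahr+/+ replicate 1.

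Levels of different genes were compared as CPM per kb of exon (normalized as above). In Ahr+/+ B cells Tgfb1 was highest at 53.0 ± 1.31, followed by Tnf at 6.42 ± 0.406, Ltb at 2.94 ± 0.595, Ebi3 at 2.00 ± 0.391, Il10 at 1.51 ± 0.488, Lta at 1.27 ± 0.0902, Il12a at 0.858 ± 0.155, Il6 at 0.299 ± 0.0326 and Il2 at 0.0708 ± 0.0242 (mean ± SD, n = 3). The ranges of Ltb and Ebi3, of Ebi3 and Il10, and of Il10 and Lta overlapped, so these neighbours in the order were not separated. In Ahr-/- B cells Tgfb1 was at 35.4 ± 1.66, Tnf at 8.53 ± 1.02, Ltb at 3.56 ± 0.557, Ebi3 at 2.90 ± 0.340, Lta at 2.17 ± 0.143, Il12a at 1.13 ± 0.261, Il10 at 0.942 ± 0.189, Il6 at 0.449 ± 0.0964 and Il2 at 0.0873 ± 0.0769 (mean ± SD, n = 3). There the ranges of Ltb and Ebi3 and of Il12a and Il10 overlapped. Lta and Il12a thus stood below Il10 in Ahr+/+ and above it in Ahr-/- B cells, though the range of Il10 overlapped those of both genes in Ahr+/+ and that of Il12a in Ahr-/- B cells. Tgfb1 made up 77.5% of the summed level of the 9 genes in Ahr+/+ and 64.2% in Ahr-/- B cells.

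Most of 26 other cytokine genes were near or below detection, as 14 fell under the minimum of 10 counts and 5 of these had no counts at all. Of the 12 tested, 3 were called, beside 17.9% of all genes, and these 3 were higher in Ahr-/- B cells. Csf1, the macrophage growth factor, had 1664, 1810 and 2000 normalized counts in Ahr+/+ libraries and 3563, 4140 and 3574 in Ahr-/- libraries, a 2.07-fold increase without overlap (log2 fold change 1.05, SE 0.071, edgeR adjusted p = 5.2e-07). Il1b, the inflammasome-dependent cytokine, had 19.4, 41.3 and 22.5 against 189, 102 and 59.3 normalized counts, a log2 fold change of 1.99 (SE 0.40, edgeR adjusted p = 0.0037). Il1a had 79.6, 128 and 66.3 against 342, 201 and 131, a log2 fold change of 1.23 (SE 0.31, edgeR adjusted p = 0.015). Both IL-1 genes varied widely among the Ahr-/- libraries, and with edgeR's robust fit neither was called (adjusted p = 0.070 for Il1b and 0.18 for Il1a). Il1a was also not called without Ahr+/+ replicate 1 (adjusted p = 0.055) or Ahr+/+ replicate 3 (adjusted p = 0.072).

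Marker lists of other cells in the spleen are given by their called genes, beside the 17.9% of all genes called, and by their summed level. For T cells, monocytes and macrophages, basophils and mast cells, and neutrophils the called share was near or below that of all genes. Of 10 markers of plasmacytoid dendritic cells, 8 were higher in Ahr-/- libraries, with a summed level of 3660 to 4328 normalized counts in Ahr+/+ and 4897 to 6072 in Ahr-/- libraries, mostly Bst2 and Pacsin1. Siglech, with the largest fold of the 10, rose from 56.8 ± 4.19 to 270 ± 32.3 normalized counts (mean ± SD, n = 3 per genotype), while Bst2 and Ly6c2 had log2 fold changes of 0.22 and 0.71 that did not pass. Of 9 conventional dendritic cell markers, 5 were higher and 1, Zbtb46, was lower, with sums of 8712 to 9416 and 10545 to 11878, mostly Ccr7, which activated B cells also express. Of 10 monocyte and macrophage markers, Cd14 was higher and Emr1 was lower, and the sums were 806 to 1088 and 250 to 745, of which Emr1 took 650 ± 14.7 and 54.1 ± 16.1 normalized counts. Of 7 NK cell markers tested, 3 were higher (352 to 435 and 450 to 712), and 1 further marker, Klra4, had no counts. Of 10 T-cell markers, 2, Cd3e and Cd28, were lower (6106 to 6528 and 6081 to 7008, mostly Lck). Among 7 basophil and mast cell markers 1 was higher (130 to 185 and 151 to 230). None of 7 neutrophil markers was called by edgeR or DESeq2, with 1 at an unadjusted p under 0.05 (114 to 348 and 130 to 501). Of 5 plasma cell markers, Xbp1 was higher and Igj and Prdm1 were lower (14212 to 20220 and 13376 to 15019), and Igj was not called with the robust fit (log2 fold change −0.92, adjusted p = 0.12). Dendritic cells and macrophages are known to express Tnf, Ebi3, Il6, Il10, Il1a and Il1b, NK and T cells Lta, Ltb and Tnf, and plasma cells Il10 and Ebi3. The part of these cells in the cytokine values was not tested.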

How the data were processed

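RNA of 6 libraries, 3 per genotype, was prepared with a stranded mRNA kit and sequenced by Illumina. Raw counts of reads per gene were deposited by the authors without normalization. Their normalized counts, and their comparison of the genotypes (fold changes and p-values), were not used here. The submitters' processing notes name TopHat2, HTSeq, DESeq and the mm10 build, without roles, and the strand setting of the counting is not given in the sources used here. Reads are not independent molecules, so the floor of 3 counts covers counting error only.

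Genes that reached 10 counts summed over the libraries (13682 of 23420, with 7220 at no counts) were compared with edgeR 4.0.16 (R 4.3.3, limma 3.58.1), using TMM scaling, the quasi-likelihood test with genotype as the term, a prior count of 0.125 and Benjamini-Hochberg adjustment over all genes tested. A gene was called at an adjusted p-value under 0.05. Normalized counts are counts divided by the TMM-scaled library size relative to the mean library. Single values and the 6 count ratios were compared with two-sided exact permutation tests (scipy 1.17.1). Standard errors and 95% intervals were derived from edgeR's quasi-likelihood F statistic and its degrees of freedom. They include the spread between libraries.

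The members and the gene lists were chosen with earlier results of these data known. Named genes were the 9 cytokines, Ahr, the partner subunits and receptor chains, and in each list up to 4 called genes, taken by the size of the log2 fold change, without overlap between genotypes and averaging 10 or more normalized counts in at least 1 genotype. Other list genes named were picked after their values were seen.

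Replicates of a genotype differed by more than sampling noise (chi-square per degree of freedom 3.96 to 9.24, and 25.3 to 45.2 between genotypes), so none was a copy of another. The reference is counting noise alone, so these values cannot show that the libraries came from separate mice. Each library is taken as 1 mouse, and p-values measure the spread between these libraries. Gene positions and exon lengths are from GENCODE M21 on GRCm38, and promoter windows from RefSeq (GRCm38.p6). Alternatives were other scalings and filters, DESeq2 1.42.0, a robust fit, a prior count of 2, a replicate block, a threshold of 0.01 and each library left out.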

Additional observations from a re-analysis of the deposited data

How the results depend on the processing

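The direction of all cytokine genes but Il2 was kept under every alternative. Without Ahr-/- replicate 2 the fitted log2 fold change of Il2 was −0.72, against 0.31 with all libraries, at 0 to 9 counts per library. Il10 crossed the threshold in 1 fit, without Ahr+/+ replicate 1 (−0.89, edgeR adjusted p = 0.011). Ebi3 stayed at 0.53 but was not called by DESeq2 (adjusted p = 0.063) or at an adjusted p-value under 0.01. With each library left out, the log2 fold change ran from −0.89 to −0.49 for Il10, 0.42 to 0.68 for Il6, −0.72 to 0.93 for Il2, 0.28 to 0.58 for Il12a, 0.40 to 0.69 for Ebi3, 0.70 to 0.81 for Lta, 0.16 to 0.45 for Ltb, 0.33 to 0.48 for Tnf, −0.62 to −0.56 for Tgfb1 and −0.57 to −0.48 for Ahr. The number of the 9 genes called was 3 or 4. The log2 count ratio differed by −1.47 to −0.99 for Il10 to Il6, −0.07 to 0.34 for Ebi3 to Il12a, 0.31 to 0.63 for Lta to Ltb, −0.43 to −0.26 for Tnf to Lta, −0.09 to 0.24 for Tnf to Ltb and −0.12 to 0.38 for Tgfb1 to Il10. The genes called over the table were 1473 at an adjusted p-value under 0.01 and 1664 (without Ahr-/- replicate 2) to 2601 (without Ahr-/- replicate 3) with a library left out, against 2453.

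Over the lists, leaving out a library gave 4 to 5 called partner and TGF-β genes, 6 to 7 receptors, 2 to 3 other cytokines, 8 to 10 regulators of Il10, 3 to 7 mRNA stability genes, 8 to 10 regulatory surface markers, 0 to 1 neighbours of Tnf (Aif1, without Ahr+/+ replicate 2) and 1 neighbour of Il10. The robust fit left 1 other cytokine called of 3, Csf1. At an adjusted p-value under 0.01, 3 of 6 mRNA stability genes were called. Called NK cell markers fell from 3 to 1 and monocyte markers from 2 to 1 in several fits, and without Ahr-/- replicate 3 there were 5 monocyte and 3 neutrophil markers. The cause of these shifts was not tested.

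Deviations of same-numbered libraries from their genotype means had correlations of −0.03, 0.12 and −0.045. Those of differently numbered libraries ran from −0.179 to 0.183. The same-numbered values lie within that range, so they cannot show whether the replicate numbers pair the samples. With the replicate number as a block, 2303 genes and 4 of the 9 cytokine genes were called, and Il10 had a log2 fold change of −0.69 (edgeR adjusted p = 0.0502). Counts of at most 90 per library limit Il10, Il6 and Il2, and 3 mice per genotype limit all permutation tests to p = 0.1.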
